A study of Homo sapiens with 16 samples.

Results

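EIF4G1 encodes the scaffold protein of the complex that loads ribosomes onto capped mRNAs, and its transcript variants are described here across 2 cell lines with normal and reduced HNRNPH1. The members were taken by name and by position. All 40 transcripts listed under EIF4G1 (ENSG00000114867.22) were used, of 251295 transcripts in each short-read table. All full-length transcript models within the locus on chromosome 3, plus strand, positions 184314509 to 184335359, were used as well, 347 of 299816 models in 4 pools. The pools held 66 and 101 of these in HEK-293T (siNegative, then siHNRNPH1) and 92 and 88 in HT-1080. Both lines are established human lines. HEK-293T are embryonic kidney cells that carry a viral large T antigen, and HT-1080 are fibrosarcoma cells. Each line was transfected with small interfering RNA at 20 nM, siHNRNPH1 to deplete HNRNPH1 or siNegative as its control, and harvested for RNA after 48 h. Each of the 4 groups had 3 short-read RNA-seq libraries from biological replicates and 1 full-length cDNA (IsoSeq) pool of its replicates. All cells were transfected, and no untransfected group was analysed. The series title names EIF4G1 variant composition, and the comparison asked how that composition differed between the siRNAs and between the lines.

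The protein eIF4G1 holds together the cap-binding protein eIF4E and the RNA helicase eIF4A, and it also contacts the poly(A)-binding protein and eIF3, which brings the small ribosomal subunit. Variants of EIF4G1 that differ in their first exons are known to encode proteins with different amino ends. HNRNPH1 is a nuclear RNA-binding protein that recognises runs of G and takes part in the choice of exons during splicing.

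The short-read values are expected counts, which RSEM assigns to transcripts by dividing reads among variants that share sequence. Totals were 107745653 to 121026216 counts per HEK-293T library and 27304426 to 32653160 per HT-1080 library. HNRNPH1 stood at 1105 to 1121 CPM, the count scaled to the library total, in the HEK-293T siNegative libraries. It stood at 234.1, 376.2 and 394.3 CPM in siHNRNPH1 replicates 1, 2 and 3. In HT-1080 it stood at 606 to 635 CPM and at 228.5 to 231.5 CPM. HEK-293T siHNRNPH1 replicate 1 stood apart from replicates 2 and 3, with a Pearson r of 0.946 and 0.941 over genes where the other same-group pairs of both lines had at least 0.994. HEK-293T short-read tests are therefore given with and without it. Leaving it out removes the library with the lowest HNRNPH1 of its group, and whether the depth of depletion set it apart was not tested. The IsoSeq pool of that group was made from pooled replicates, so this library cannot be left out there.

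RefSeq places 3 start sites of EIF4G1 on chromosome 3 (GRCh38.p14, plus strand), at 184314606, 184315164 and 184320263. The 30 bases just before each are shown because the variants were grouped by where they begin. They span chr3:184314576-184314605, chr3:184315134-184315163 and chr3:184320233-184320262, 5′ to 3′, and capitals mark runs of 3 or more G, the kind of letters that HNRNPH1 is known to bind in RNA.
Upstream start: ggccgccgagcGGGatctgtgcGGGGagcc
Middle start: cccggccccgcccgccctccGGGccgaccc
Downstream start: agtcaccctggctccacctactggatctgg
The upstream stretch holds 2 such runs, the middle one 1 and the downstream one none. Windows of 300 bases were taken that lie mostly upstream of each start, such as 184314356 to 184314655 for the first. In these the motif GGG, extended over neighbouring G, occurred 12, 11 and 8 times on the plus strand, which reads as the RNA does. Of 35116 windows of that length in the RefSeq table, 14.6%, 19.0% and 36.7% held at least as many. On the opposite strand the same motif occurred 3, 14 and 9 times, a number reached by 79.9%, 6.92% and 26.7% of windows. These windows are DNA, most of it before the start and so not part of RNA that begins there, and no binding was measured.

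IsoSeq models began more often at the first of these starts than at the others in both lines, and more models began at the second in HT-1080 than in HEK-293T. A model is a collapsed full-length transcript structure. The files hold no read counts, so abundant and rare models weigh the same, and with 1 pool a group no test can be made. Intervals are exact Clopper-Pearson 95% intervals that take each model as an independent draw. Collapsed models need not be, so the intervals are a rough guide to numbers of models, not to molecules or replicates. Within 100 bases of the first RefSeq start began 38 and 71 models in HEK-293T (siNegative, then siHNRNPH1) and 39 and 38 in HT-1080. Within 100 bases of the second began 1 and 2 in HEK-293T and 6 and 12 in HT-1080, and within 100 bases of the third none of the 347.

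The exons were numbered by position for this description. Exon 1 ends at 184314674, and exon 1b starts downstream of it and runs into exon 2, ending at 184315545. Exon 1b opened 1 of 66 models in the HEK-293T siNegative pool (1.52%, interval 0.038 to 8.16%) and 2 of 101 in the siHNRNPH1 pool (1.98%, 0.241 to 6.97%). It opened 9 of 92 models in the HT-1080 siNegative pool (9.78%, 4.57 to 17.8%) and 13 of 88 in the siHNRNPH1 pool (14.8%, 8.11 to 23.9%). Within each line the intervals of the siRNAs overlapped. The HT-1080 siHNRNPH1 interval lay above that of the HEK-293T siHNRNPH1 pool, while those of the siNegative pools overlapped. The former rest on 13 and 2 models of 1 pool each, and are no test of the lines. The remaining models, 27, 28, 45 and 37 in the order above, began in a later exon or elsewhere, and whether those are true starts or shortened molecules was not tested.

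**Figure D1:**
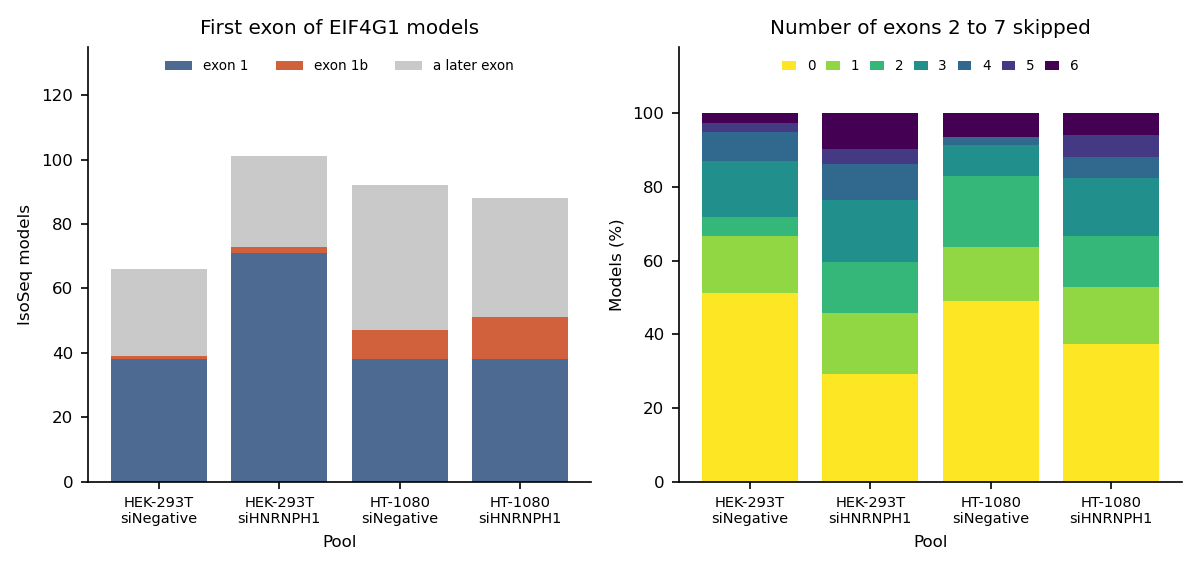
Left: number of EIF4G1 IsoSeq models in each pool by the exon they begin in (exon 1, exon 1b, or a later exon). Right: percent of models that begin in exon 1 or 1b and reach exon 8, by the number of exons 2 to 7 they skip. Models with no skipped exon made up 51.3% and 29.2% in HEK-293T (siNegative, then siHNRNPH1) and 48.9% and 37.3% in HT-1080.

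Between the start and exon 8, the models joined exons 2 to 7 in many combinations, and more of them skipped exons in the siHNRNPH1 pools. Exon 8, 184320630 to 184320722, was in at least 98.1% of the models that span it in every pool, so it served as the fixed end. In the HEK-293T pools, 19 of 39 such models skipped at least 1 of exons 2 to 7 with siNegative (48.7%, interval 32.4 to 65.2%) and 51 of 72 with siHNRNPH1 (70.8%, 58.9 to 81.0%). In the HT-1080 pools, 24 of 47 (51.1%, 36.1 to 65.9%) and 32 of 51 (62.7%, 48.1 to 75.9%) did so. The intervals overlapped in both lines. The mean number of skipped exons per model was 1.31 and 2.13 in the HEK-293T pools, and 1.26 and 1.78 in the HT-1080 pools. Distinct early chains numbered 15 and 28 in HEK-293T and 18 and 25 in HT-1080. The files themselves differ in size, with 64705 and 94847 models in HEK-293T and 72186 and 68078 in HT-1080, and the part of this in the HEK-293T difference was not tested.

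The chain with every exon from 1 to 7 was the most frequent in each pool, with 12 of 39, 13 of 72, 9 of 47 and 9 of 51 models. A direct join of exon 1 to exon 8 appeared in 1 and 7 models in HEK-293T and in 3 and 3 in HT-1080. The chain that joins exon 1 to exon 5 had 5 and 7 models in HEK-293T and 3 and 4 in HT-1080. Exon 1b led into exon 3, with exons 4 to 7 all present, in 1 and 1 models in HEK-293T and in 5 and 4 in HT-1080. Single chains thus rest on few models, and none was compared by a test.

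**Figure D2:**
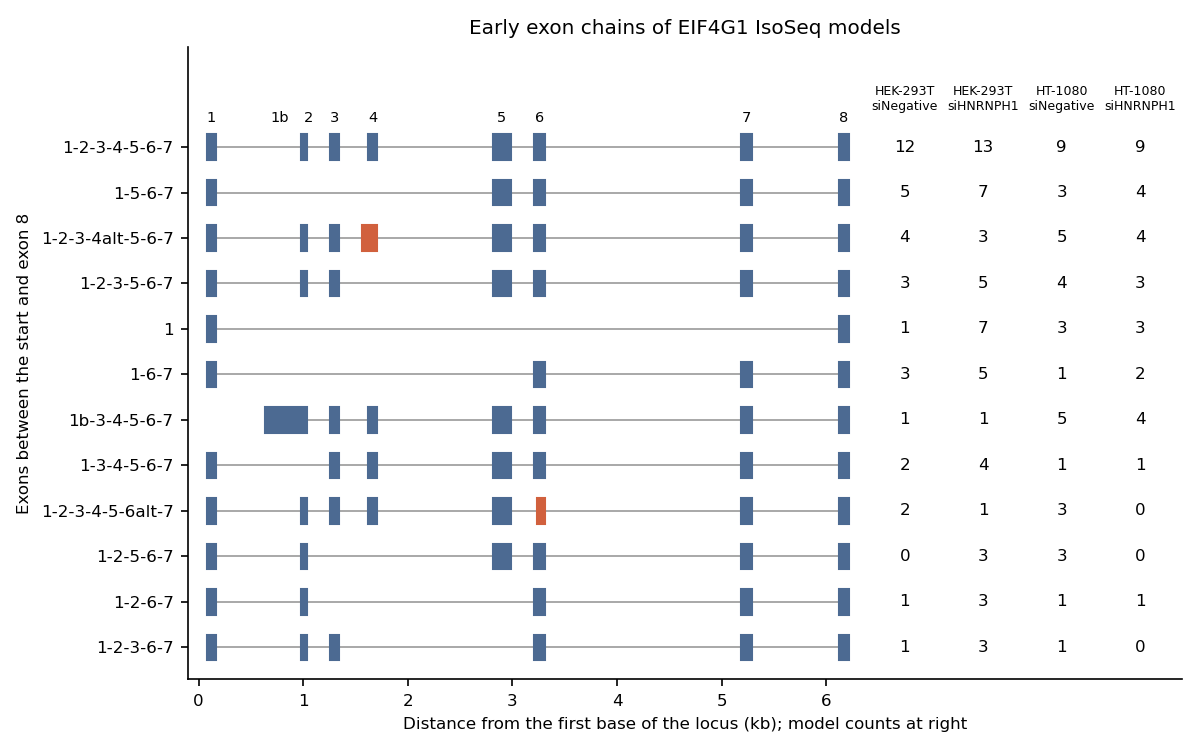
Exon maps of the 12 most frequent early chains, drawn to scale against distance from the first base of the locus in kb, with the number of models in each pool at the right. Orange boxes are exons with an alternative acceptor. The full chain leads with 12, 13, 9 and 9 models, and the direct join of exon 1 to exon 8 stands at 1, 7, 3 and 3.

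Per exon, inclusion was lower in the siHNRNPH1 pool for each of exons 2 to 7 in both lines, and stayed within 3.70 points for all exons from 8 to 32. Exon 5 (184317321 to 184317497, 177 bases) was in 33 of 40 spanning models with siNegative in HEK-293T (82.5%, interval 67.2 to 92.7%) and in 47 of 73 with siHNRNPH1 (64.4%, 52.3 to 75.3%). In HT-1080 it was in 42 of 51 (82.4%, 69.1 to 91.6%) and in 33 of 51 (64.7%, 50.1 to 77.6%). The change was -18.1 points in HEK-293T and -17.6 points in HT-1080, and the intervals overlapped in both. Exon 4 (184316132 to 184316218) stood at 61.5% and 42.5% in the HEK-293T pools, and at 58.0% and 49.0% in the HT-1080 pools. Exon 7 (184319689 to 184319801) stood at 97.7% and 82.4%, and at 94.3% and 84.9%. Exons 2, 3 and 6 moved by -5.41, -11.7 and -11.6 points in HEK-293T and by -3.37, -2.08 and -9.62 points in HT-1080. These exons lie next to each other and are skipped together in many models, so they are not separate observations.

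As a background, a stricter measure was taken over all loci, for exons with at least 30 spanning models in every pool. Here a model counted only if it held the exon with exactly the same ends, where above it only had to not skip it. There were 728 such exons, of which 33 belong to EIF4G1, with the forms of an exon counted apart. Inclusion was lower by at least 10 points in both lines for 3 of these exons (0.412%) and higher for 4 (0.549%). EIF4G1 held 1 of the 3, exon 5 (-17.0 points in HEK-293T and -17.6 in HT-1080 by this measure), and none of the 4. Other exons can differ more between the measures, such as the usual form of exon 4, at -15.7 and -6.78 points here. Loci with this many models are few, and 33 of the 728 exons being of 1 gene makes this a narrow background.

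**Figure D3:**
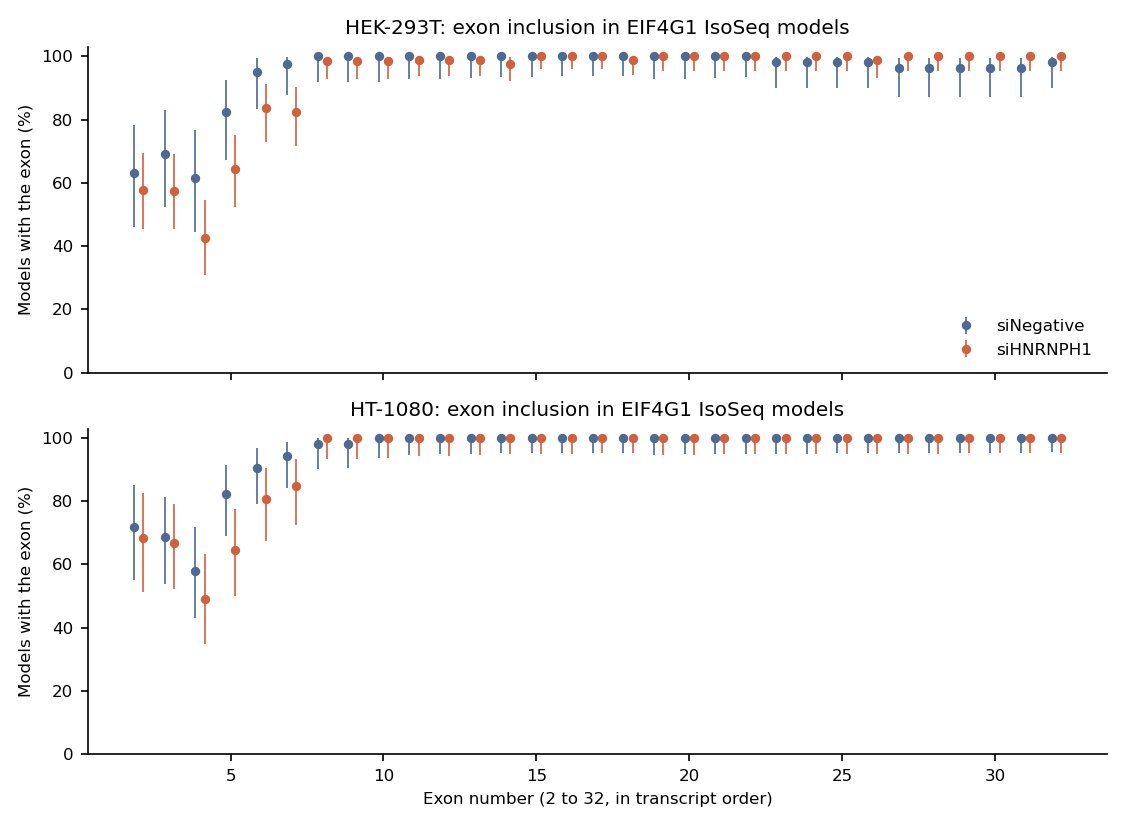
Percent of spanning EIF4G1 IsoSeq models that contain each exon, from exon 2 to exon 32, in HEK-293T (top) and HT-1080 (bottom), with 95% Clopper-Pearson intervals. Points for siHNRNPH1 lie below siNegative at exons 2 to 7 in both lines, with overlapping intervals, and the remaining exons stay near 100%.

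The models used 71 different junctions, of which 44 appeared in all 4 pools and 33 were held by at least 10% of a pool. Further along the gene exon inclusion differed little between the pools, and the forms of some exons differed more. An alternative form of exon 9, 84 bases longer, made up 1 of 42 and 7 of 75 models with that exon in HEK-293T (2.38% and 9.33%). In HT-1080 it made up 3 of 55 in each pool (5.45%). Exon 15 had an acceptor 3 bases further upstream in 13 of 55 and 24 of 91 models in HEK-293T (23.6% and 26.4%) and in 28 of 74 and 21 of 71 in HT-1080 (37.8% and 29.6%). Among the early exons, an alternative form of exon 4, 60 bases longer, made up 4 of 24 and 4 of 30 models with that exon in HEK-293T. In HT-1080 it made up 6 of 29 and 5 of 25. Most models ended between 184335347 and 184335359, with 46 of 66 and 68 of 101 in HEK-293T and 68 of 92 and 63 of 88 in HT-1080. A second group of ends lay inside exon 19, at 184325293 to 184325299, with 9 and 18 models in HEK-293T and 11 and 12 in HT-1080. Of these 50 short models, 46 began in exon 1 or 1b. Retained introns were rare, in 1, 1, 3 and 1 models of the 4 pools over 31 introns. The intervals of these exon forms and ends overlapped between the siRNAs, and no interval is given for retained introns.

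In the short reads, the variants fell into a different order in each line before any depletion of HNRNPH1. Per control library, 6 transcripts made up 90% of the EIF4G1 counts in HEK-293T and 9 did in HT-1080. The 8 transcripts that reached 5% of the gene in the mean of at least 1 group are named here, and together they held 85.9 to 95.5% of the counts. Shares are of expected counts and are not corrected for transcript length. The exon structures of these Ensembl transcripts were not used here, so they are not assigned to the first-exon groups above.

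ENST00000411531.5 led in HEK-293T, with 33.6, 30.9 and 35.7% of EIF4G1 counts in the siNegative libraries, and held 6.02, 5.18 and 6.13% in HT-1080. ENST00000346169.7 led in HT-1080, with 34.9, 29.2 and 34.7%, and held 12.3, 13.2 and 12.9% in HEK-293T. ENST00000441154.5 held 0.0127, 1.75 and 0.283% in HEK-293T and 13.6, 13.2 and 14.7% in HT-1080. The siNegative groups of the lines did not overlap for these 3, nor for any other of the 8 named transcripts. How many of all transcripts separate the lines in this way was not counted. ENST00000350481.9 held 19.1% ± 2.31 (SD, n = 3) in HEK-293T and 7.23% ± 1.86 in HT-1080. For ENST00000676453.1 the shares were 14.4% ± 0.313 and 5.39% ± 0.826, and for ENST00000475721.5 they were 8.23% ± 0.617 and, per HT-1080 library, 13.6, 17.7 and 13.8%.

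Usage, meaning how each transcript contributes relative to the other transcripts of its gene, was tested between the siNegative groups with limma diffSplice, and EIF4G1 differed with a Benjamini-Hochberg (BH) adjusted p = 2.39e-30. Of all genes tested, 73.4% differed. Of 33 EIF4G1 transcripts tested, 9 were used more in HT-1080 and 4 less, against 36.9% of all transcripts called in either direction, so the share called is near the background. The largest fitted usage changes among the named transcripts were 5.90 for ENST00000441154.5 (limma adjusted p = 1.76e-24) and -3.21 for ENST00000411531.5 (limma adjusted p = 3.66e-31), on the log2 scale, HT-1080 over HEK-293T. The lines come from separate tables and differ in depth, so cell line, depth and any unlabelled batch cannot be told apart. The composition moved far more between lines than between replicates: single siNegative libraries of different lines differed in 46.3 to 52.3% of EIF4G1 counts, and those of 1 line in 4.65 to 6.90% (HEK-293T) and 3.83 to 10.2% (HT-1080).

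**Figure D4:**
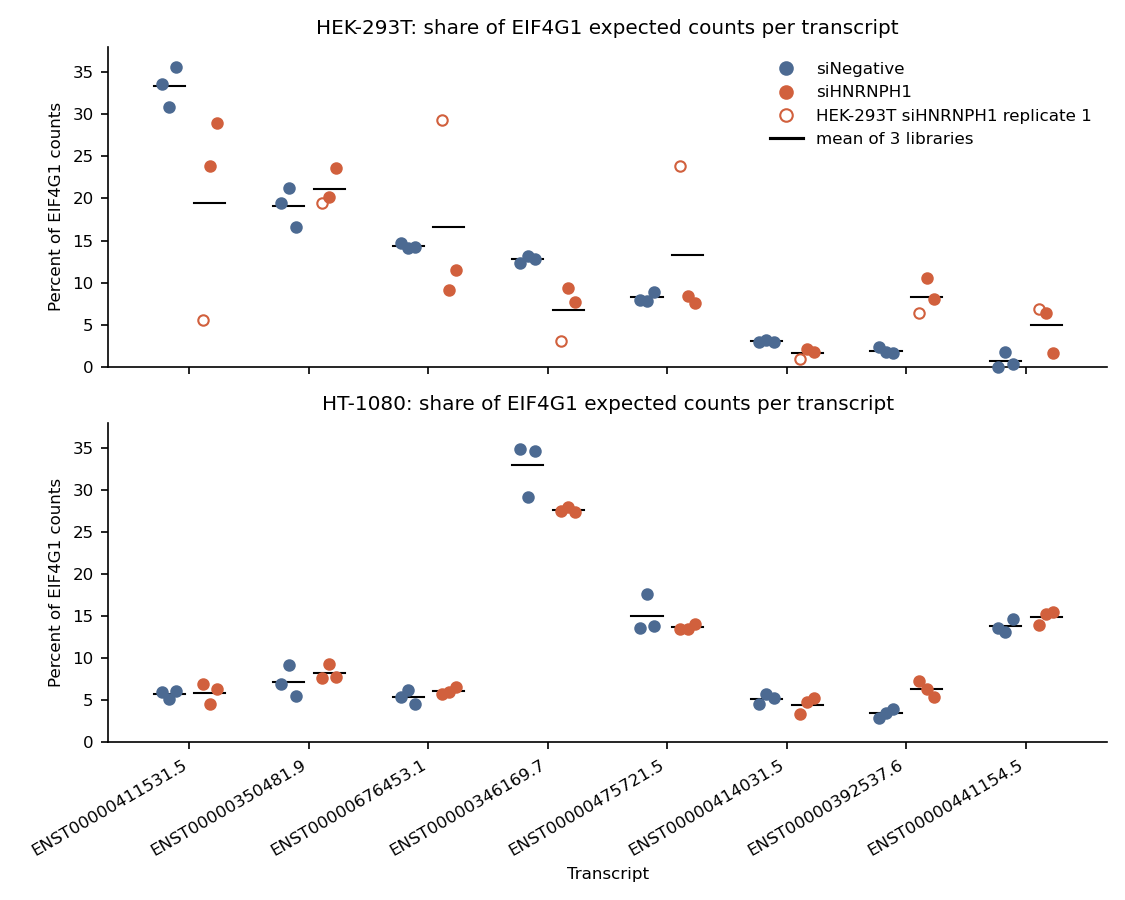
Percent of EIF4G1 expected counts in each of the 8 named transcripts, per library, in HEK-293T (top) and HT-1080 (bottom), blue for siNegative and orange for siHNRNPH1, with black lines at the mean of 3. The open circle is HEK-293T siHNRNPH1 replicate 1, which sits far from replicates 2 and 3 for ENST00000411531.5 (5.57%), ENST00000676453.1 (29.3%) and ENST00000475721.5 (23.9%).

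The level of the whole gene was lower with siHNRNPH1 in every library of both lines. EIF4G1 stood at 1287, 1309 and 1257 CPM with siNegative in HEK-293T and at 756, 1108 and 1052 CPM with siHNRNPH1. In HT-1080 the values were 1487, 1364 and 1486 CPM, and 1243, 1245 and 1231 CPM. The groups did not overlap in either line. The log2 fold change was -0.43 (SE 0.15) in HEK-293T, which did not pass the edgeR quasi-likelihood test (BH-adjusted p = 0.141), and -0.31 (SE 0.03) without replicate 1 (edgeR adjusted p = 3.31e-09). In HT-1080 it was -0.29 (SE 0.05, edgeR adjusted p = 4.70e-04), a call that was lost with all 12 libraries in 1 fit (edgeR adjusted p = 0.0533). At this threshold of 0.05, 10.0% of genes were called in HEK-293T, 61.8% without replicate 1, and 65.3% in HT-1080. The difference of the changes between the lines, 0.08 (HT-1080 minus HEK-293T), did not pass the interaction test (edgeR adjusted p = 0.797), with -0.03 without replicate 1. Between the siNegative groups, EIF4G1 was higher in HT-1080 by 0.42 (SE 0.05, edgeR adjusted p = 1.63e-05), where 86.6% of genes were called. Levels in bulk RNA do not separate fewer molecules per cell from fewer cells of a kind.

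The share of ENST00000392537.6 was higher with siHNRNPH1 in every library of both lines. In HEK-293T it held 2.38, 1.76 and 1.63% of EIF4G1 counts with siNegative and 6.38, 10.5 and 8.01% with siHNRNPH1. In HT-1080 it held 2.94, 3.48 and 3.94%, and then 7.27, 6.38 and 5.42%. The groups did not overlap in either line, and the exact two-sided permutation test gave p = 0.1 in each, the smallest that 3 libraries against 3 allow. Its usage rose by 2.08 on the log2 scale in HEK-293T (limma diffSplice adjusted p = 0.0356), by 2.44 without replicate 1 of siHNRNPH1 (limma adjusted p = 2.44e-14), and by 0.90 in HT-1080 (limma adjusted p = 2.93e-05). Its level changed with the same sign, by 1.74 (SE 0.32) in HEK-293T, which did not pass (edgeR adjusted p = 0.0994), by 1.97 (SE 0.22) without replicate 1 (edgeR adjusted p = 0.00661), and by 0.64 (SE 0.15) in HT-1080 (edgeR adjusted p = 0.0401). With the replicate number as a block, or with all 12 libraries in 1 fit, 0 EIF4G1 transcripts passed in level in HT-1080, this one included. In HEK-293T the usage call was lost with edgeR's diffSpliceDGE (adjusted p = 0.215) and without any 1 of siNegative replicates 1, 2 and 3 or siHNRNPH1 replicate 2 (limma adjusted p of 0.0907 to 0.382). In HT-1080 it held in the 11 alternatives fitted within the line that tested this transcript, and was lost with all 12 libraries in 1 fit, where no EIF4G1 transcript passed.

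ENST00000346169.7 moved the other way. In HEK-293T it held 12.3, 13.2 and 12.9% with siNegative and 3.04, 9.38 and 7.64% with siHNRNPH1, and in HT-1080 34.9, 29.2 and 34.7%, and then 27.6, 27.95 and 27.3%. The groups did not overlap in either line (exact permutation p = 0.1 in each). Its usage fell by 0.36 on the log2 scale in HT-1080 (limma adjusted p = 0.00106). In HEK-293T its usage change of -1.33 did not pass (limma adjusted p = 0.217), and without replicate 1 of siHNRNPH1 it was -0.57 (limma adjusted p = 0.00477). In HT-1080 the call was lost with diffSpliceDGE and with only the transcripts of at least 5% of the gene.

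ENST00000441154.5 passed the usage test in HEK-293T, a call that rests on 1 library. Its share was 0.0127, 1.75 and 0.283% with siNegative and 6.90, 6.34 and 1.59% with siHNRNPH1, which overlap. In expected counts, siNegative replicate 1 had 18.2, where replicates 2 and 3 had 2661 and 431. The fitted usage change was 4.44 on the log2 scale (limma adjusted p = 5.76e-05), and 4.20 without siHNRNPH1 replicate 1 (limma adjusted p = 2.84e-09). Without siNegative replicate 1 it was 2.55 (limma adjusted p = 0.193), and no EIF4G1 transcript passed in HEK-293T. In HT-1080 the same transcript held 13.6, 13.2 and 14.7%, and then 14.0, 15.3 and 15.5%, with a usage change of 0.11 (limma adjusted p = 0.679), or 0.24 without siNegative replicate 2 (limma adjusted p = 0.00884).

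ENST00000411531.5, the leading variant of HEK-293T, held 33.6, 30.9 and 35.7% there with siNegative and 5.57, 23.9 and 29.0% with siHNRNPH1. The groups did not overlap (exact permutation p = 0.1), and the mean went from 33.4% to 19.5%, or to 26.4% without replicate 1. Its usage change of -1.36 did not pass (limma adjusted p = 0.113), and without replicate 1 it was -0.48 (limma adjusted p = 1.52e-05). In HT-1080 its means were 5.78% ± 0.523 and 5.92% ± 1.20 (SD, n = 3), and the groups overlapped. ENST00000414031.5 held 2.97, 3.13 and 2.95%, and then 0.926, 2.05 and 1.76% in HEK-293T, without overlap (mean 1.58%, or 1.91% without replicate 1), and its usage change of -1.22 did not pass (limma adjusted p = 0.434), nor did -0.61 without replicate 1 (limma adjusted p = 0.211). It overlapped in HT-1080 with 5.17% ± 0.611 and 4.45% ± 0.986.

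Replicate 1 of HEK-293T siHNRNPH1 set the sign of the mean change of a pair of transcripts. ENST00000676453.1 held 14.7, 14.1 and 14.2% with siNegative and 29.3, 9.08 and 11.6% with siHNRNPH1, a mean change of 2.30 points that became -4.04 points without replicate 1. Its fitted usage change was negative in both fits, -0.18 (limma adjusted p = 0.952) and -0.49 without replicate 1 (limma adjusted p = 0.00866). Its level changed by -0.26 (edgeR adjusted p = 0.814), and by -0.78 without replicate 1 (edgeR adjusted p = 0.00785). ENST00000475721.5 held 7.93, 7.81 and 8.94%, and then 23.9, 8.41 and 7.62%, a change of 5.07 points with it and -0.22 without. In HT-1080, ENST00000475721.5 had a lower level with siHNRNPH1, with a log2 change of -0.38 (SE 0.08, edgeR adjusted p = 0.0288), a call lost with the replicate block and with all 12 libraries in 1 fit. Its share overlapped there, at 13.6, 17.7 and 13.8%, and then 13.4, 13.5 and 14.1%. ENST00000350481.9 overlapped in both lines, with 19.1% and 21.1% in HEK-293T and 7.23% and 8.25% in HT-1080. Its usage change in HEK-293T was -0.02 (limma adjusted p = 0.997), and 0.34 without replicate 1 (limma adjusted p = 0.0118).

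Over the gene as a whole, usage of EIF4G1 differed between the siRNAs in both lines. In HEK-293T, diffSplice gave a Simes adjusted p = 2.61e-04 (limma), and 9.59% of genes tested were called. In HT-1080 it gave 1.76e-04, where 21.2% were called. The HEK-293T call was lost without siNegative replicate 1 (limma adjusted p = 0.395) and with diffSpliceDGE (adjusted p = 0.195). The HT-1080 call was lost with transcripts of at least 5% of the gene (limma adjusted p = 0.179) and with all 12 libraries in 1 fit (limma adjusted p = 1). Without siHNRNPH1 replicate 1 the HEK-293T p was 1.49e-13 (limma), and 41.6% of genes were called.

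Of the 40 transcripts, 5 were listed at 0 in every HEK-293T library and 4 in every HT-1080 library, and 32 passed the filter on low counts in each line, and a transcript that passed through 1 group alone counts among them. In usage, 2 of 32 rose and 0 fell in HEK-293T (2.68% of all transcripts were called), and 5 rose and 3 fell without replicate 1 (15.4%). In HT-1080, 3 rose and 1 fell (7.04%), the rises including ENST00000427845.5 and ENST00000426123.5, which were named after their values were seen. These held 0.571 to 0.630% and 0 to 0.202% of EIF4G1 counts with siNegative and 1.13 to 1.66% and 0.129 to 0.598% with siHNRNPH1. The call of ENST00000426123.5 was lost in 6 of 11 alternatives, namely the replicate block, diffSpliceDGE, and without siNegative replicate 1, 2 or 3 or siHNRNPH1 replicate 3. That of ENST00000427845.5 was lost without siHNRNPH1 replicate 2, and both were lost with all 12 libraries in 1 fit. In HEK-293T, ENST00000427845.5 held 0.105, 0.0929 and 0.0937% with siNegative and 0.159, 0.361 and 0.460% with siHNRNPH1, so its groups did not overlap in either line. Its usage change there was 1.51 (limma adjusted p = 0.566), and 2.13 without replicate 1 (limma adjusted p = 0.0652). In level, 0 of 32 passed edgeR in HEK-293T (0.248% of all transcripts), with 7 at an unadjusted p under 0.05 and 2 called by DESeq2. Without replicate 1, 5 were higher and 6 lower (16.0% of transcripts). In HT-1080, 2 were higher and 2 lower (16.1% of transcripts), and without any 1 library 1 or 2 of the 32 passed.

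As a plain measure of composition, 22.9% of EIF4G1 counts lay in other transcripts between the mean siRNA groups of HEK-293T, 17.3% without replicate 1, and 8.27% in HT-1080. The medians over genes with several transcripts were 7.86%, 6.05% and 6.14%, and EIF4G1 stood above 88.8%, 84.9% and 61.0% of those genes. EIF4G1 has 40 listed transcripts, and the genes were not matched for number of transcripts, so the part of that number in its rank was not tested. Single HEK-293T libraries of different siRNAs differed by 12.5 to 45.6% of EIF4G1 counts. The siHNRNPH1 libraries differed among themselves by 11.6 to 39.7%, so these ranges overlap, and the siNegative libraries by 4.65 to 6.90%. Without siHNRNPH1 replicate 1, libraries of different siRNAs differed by 12.5 to 22.7%. There siHNRNPH1 replicates 2 and 3, a single pair, differed by 11.6%. In HT-1080 libraries of different siRNAs differed by 7.93 to 10.7%, and the siNegative libraries among themselves by 3.83 to 10.2%, so these ranges overlap.

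The siRNA effect on usage differed between the lines by the interaction test (limma diffSplice adjusted p = 3.80e-05 for the gene, with 3.39% of genes called), and it was lost without HEK-293T siNegative replicate 1 (limma adjusted p = 0.130). Of 33 transcripts, 1 passed (0.655% of all transcripts), ENST00000441154.5, with a difference of -4.45. Without HEK-293T siHNRNPH1 replicate 1, ENST00000392537.6 passed too, with a difference of -1.49 on the log2 scale (limma adjusted p = 0.00209, 3.41% of all transcripts called), where with all libraries it had -1.26 (limma adjusted p = 0.570).

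The partners and regulators of eIF4G1 were taken as a list of 33 genes. In HT-1080, 9 rose and 12 fell, 63.6% of the list against 65.3% of all genes, with a median log2 fold change of -0.05 against 0.01 over all genes. In HEK-293T, 1 rose and 1 fell, against 5.12% and 4.88% of all genes, and without replicate 1 of siHNRNPH1 7 rose and 17 fell, 72.7% against 61.8%. The list thus moved about as often as genes at large in HT-1080. The HEK-293T calls were lost without any 1 of the other 5 libraries.

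With all libraries, 2 listed genes were called in both lines, each in the same direction. The share of all genes called in both lines was not counted. Without replicate 1 more listed genes were called in both lines. Of these, EIF4G3, EIF4A1, EIF4B, EIF3C, EIF3F and EIF3J moved in opposite directions. PABPC4, PAIP1, EIF4G2, EIF4E3, EIF4A2, EIF4EBP2, PDCD4, EIF3A and EIF3E moved in the same direction. PABPC4, a cytoplasmic poly(A)-binding protein, rose by 0.79 (SE 0.14, edgeR adjusted p = 0.0265) in HEK-293T, by 0.66 (SE 0.03, 2.19e-15) without replicate 1 and by 0.40 (SE 0.04, 1.48e-05) in HT-1080. PAIP1, which interacts with poly(A)-binding protein and eIF4A, fell by 0.65 (SE 0.11, edgeR adjusted p = 0.0215), by 0.63 (SE 0.04, 1.36e-12) and by 0.39 (SE 0.06, 1.96e-04). PABPC1, the main poly(A)-binding protein, changed by 0.20 (edgeR adjusted p = 0.2997) in HEK-293T, by 0.21 (SE 0.03, 4.09e-07) without replicate 1, and by 0.05 (0.289) in HT-1080.

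Among the scaffolds, EIF4G2, a relative without the eIF4E-binding part, fell in HT-1080 by 0.43 (SE 0.05, edgeR adjusted p = 5.54e-05), and in HEK-293T changed by -0.54 (0.301) and by -0.27 without replicate 1 (1.48e-08). EIF4G3, the closest relative of EIF4G1, rose in HT-1080 by 0.66 (SE 0.06, edgeR adjusted p = 1.28e-05) and changed by -0.45 in HEK-293T (0.336), or -0.20 without replicate 1 (2.97e-06). That difference between the lines passed the interaction test (edgeR adjusted p = 0.0194). The cap-binding EIF4E fell in HT-1080 by 0.45 (SE 0.04, edgeR adjusted p = 1.12e-05), and in HEK-293T its change was -0.11 (0.655), or -0.0048 without replicate 1 (0.907).

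Of the helicases, EIF4A2 rose in HT-1080 by 0.78 (SE 0.04, edgeR adjusted p = 2.29e-07), with 0.45 in HEK-293T (0.121) and 0.57 without replicate 1 (2.34e-13). EIF4A1, the more abundant helicase, rose in HT-1080 by 0.14 (SE 0.05, edgeR adjusted p = 0.0391), with 0.22 in HEK-293T (0.633) and -0.12 without replicate 1 (3.41e-04). EIF4EBP1, which keeps eIF4E away from eIF4G1, fell in HT-1080 by 0.69 (SE 0.08, edgeR adjusted p = 4.77e-05), with 0.64 in HEK-293T (0.403) and -0.02 without replicate 1 (0.712). EIF3A, the largest subunit of eIF3, fell in HT-1080 by 0.44 (SE 0.05, edgeR adjusted p = 5.16e-05), with -0.92 in HEK-293T (0.0823) and -0.67 without replicate 1 (4.07e-15). The kinases that dock on eIF4G1 to phosphorylate eIF4E both rose in HT-1080, MKNK1 by 0.33 (SE 0.06, edgeR adjusted p = 4.86e-04) and MKNK2 by 0.74 (SE 0.04, 2.81e-07), and neither passed in HEK-293T, with 0.11 (0.634) and 0.11 (0.698), or without replicate 1, with 0.01 (0.864) and -0.04 (0.359). Whether siRNA effects differed between the lines was tested for the whole list, and 5 of 33 genes passed (15.2%, against 19.0% of all genes), or 24 without replicate 1 (72.7%, against 49.0%).

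**Figure D5:**
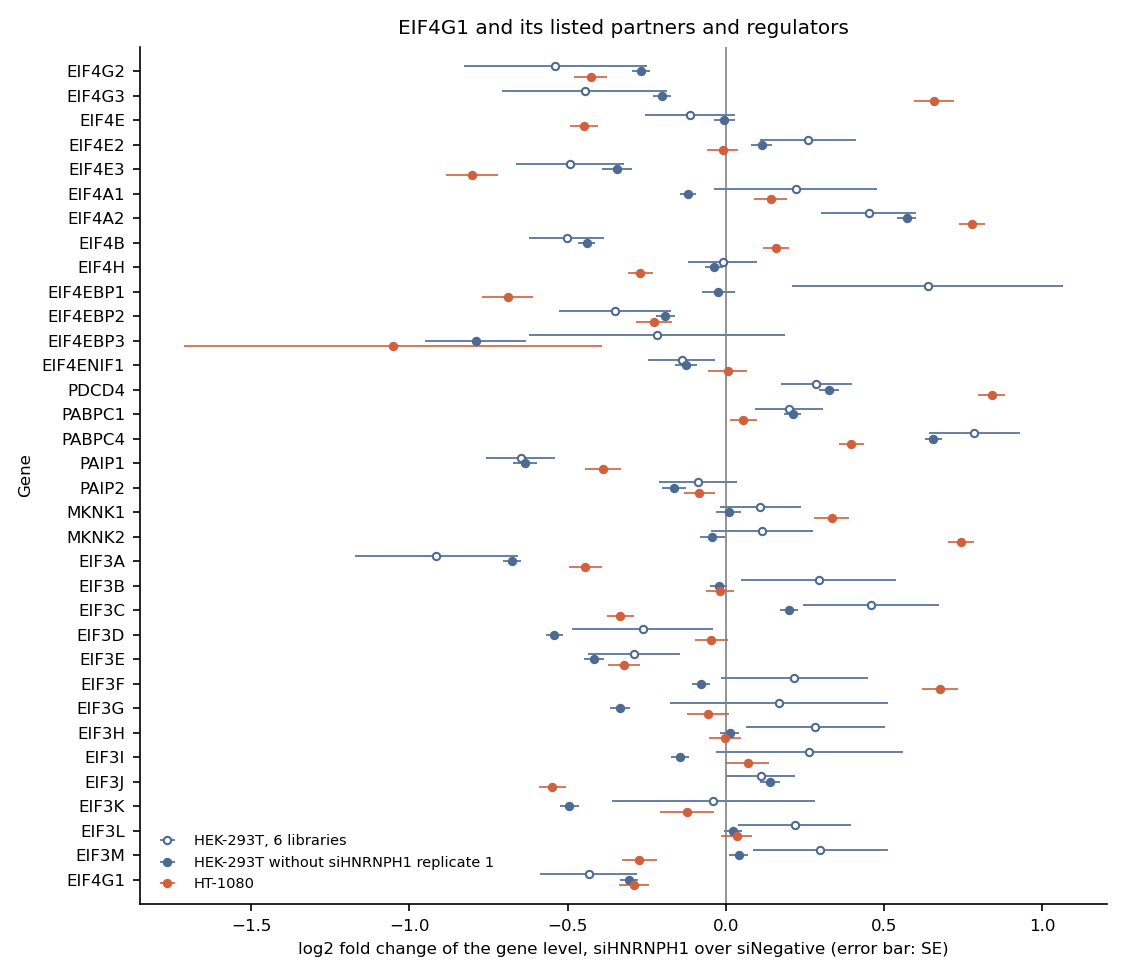
Log2 fold change of the gene level, siHNRNPH1 over siNegative, for the 33 listed genes and EIF4G1 (bottom), with SE bars. Open blue points are HEK-293T with all 6 libraries, filled blue points leave out siHNRNPH1 replicate 1, and orange points are HT-1080. PABPC4 lies right of 0 and PAIP1 left of 0 in all 3 fits.

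The genes beside EIF4G1 were measured as neighbours. PSMD2, a proteasome subunit gene, fell in HT-1080 by 0.35 (SE 0.04, edgeR adjusted p = 6.91e-05) and changed by 0.07 in HEK-293T (0.783), or -0.06 without replicate 1 (0.0626). FAM131A fell in both, by 0.66 in HEK-293T (SE 0.11, edgeR adjusted p = 0.0213), by 0.62 without replicate 1 (SE 0.06, 1.16e-08) and by 0.16 in HT-1080 (SE 0.05, 0.0133). The strandedness of the counting is not given in the sources used here, so reads of overlapping or antisense transcripts cannot be told apart. SNORD66, a small nucleolar RNA gene within EIF4G1, was listed at 0 in all 12 libraries.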

How the data were processed

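Expected counts per transcript were estimated by the authors with RSEM on GRCh38.p13, per the submitters' processing notes; the RSEM version, aligner, annotation release and strandedness are not given in the sources used here. The deposited expected counts were summed per gene for gene tests, then rounded, and fitted per cell line in R 4.3.3 without a replicate term. Levels were fitted with edgeR 4.0.16 (TMM, filterByExpr, robust quasi-likelihood). Usage was fitted with limma 3.58.1 diffSplice on voom weights. P-values are two-sided and BH-adjusted over all features. CPM values are counts scaled to the library total, without TMM factors. DESeq2 1.42.0 served as an alternative. IsoSeq models, deposited as exon positions per model, were read with Python 3.11.15. Tests were checked on simulated counts with large changes, the same spread for all features and no outlying library. In each line and step 200 of 200 changed genes were recovered, and 1.48 to 6.98% of calls were of unchanged genes. That check does not cover a library such as HEK-293T siHNRNPH1 replicate 1 or the division of reads by RSEM. Every sample column was matched, with 0 left over.

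Members and lists were chosen with earlier results of these data known, and exon 8 as the fixed end, the exon numbering and the exon background were chosen after the models were seen. Named transcripts reached 5% of the gene in a group mean or passed the usage test in both lines. Named list genes are EIF4G2, EIF4G3, EIF4E, EIF4A1, EIF4A2, EIF4EBP1, PABPC1, EIF3A, MKNK1, MKNK2 and any called the same way in both lines, with the 3 locus neighbours and the 5 genes most like EIF4G1 in level. The replicates are biological, per the labels. No pair of libraries of 1 group agreed within sampling noise (chi-square per degree of freedom of at least 9.85).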

Additional observations from a re-analysis of the deposited data

Results flagged for a closer look

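Each of the following differed between the cell lines in a test of the difference itself. The change in EIF4G1 transcript usage differed with a limma adjusted p = 3.80e-05, and it did not pass without HEK-293T siNegative replicate 1 (limma adjusted p = 0.130). ENST00000441154.5 carried this, with a usage change lower by 4.45 on the log2 scale in HT-1080 (difference -4.45, limma adjusted p = 1.07e-05), and it held 0.0127% of EIF4G1 counts in HEK-293T siNegative replicate 1. The log2 fold change of EIF4G3 was 1.04 higher in HT-1080 than in HEK-293T (edgeR adjusted p = 0.0194), and 0.81 higher without HEK-293T siHNRNPH1 replicate 1 (3.05e-07). For FAM131A the difference was 0.43 (edgeR adjusted p = 0.0154), and 0.41 without that replicate (8.66e-05). In the interaction test of gene levels, 19.0% of all genes passed. Cell line, depth and any unlabelled batch cannot be told apart in these differences.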

How the results depend on the processing

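Results of HEK-293T moved most with single libraries. Leaving out 1 library at a time gave an EIF4G1 log2 fold change of -0.52 to -0.31, 0 to 24 listed genes called, 0 to 11 transcripts changed in level, a usage adjusted p of 1.49e-13 to 0.395 (limma), and 0 to 8 transcripts changed in usage, the last being 1 without siNegative replicate 2 or 3 or siHNRNPH1 replicate 2. The high counts and the smallest p belong to the fit without siHNRNPH1 replicate 1. With all 12 libraries in 1 fit the EIF4G1 change was -0.38 (edgeR adjusted p = 0.0275), with 2 transcripts changed in level and 5 in usage. DESeq2 called 6 listed genes and 2 transcripts. With diffSpliceDGE the usage adjusted p was 0.195 and 1 transcript was called, as was 1 among transcripts of at least 5% of the gene. In HT-1080, leaving out 1 library left 1 to 2 transcripts changed in level. With all 12 libraries the EIF4G1 change was -0.30 (edgeR adjusted p = 0.0533), 0 transcripts changed in level or usage, and the usage adjusted p was 1 (limma). With transcripts of at least 5% of the gene the usage adjusted p was 0.179 (limma) and 0 transcripts were called, and diffSpliceDGE called 2. The difference in usage change between the lines had an adjusted p of 1.01e-10 to 0.130 (limma) when 1 library was left out.

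The replicate block, with the replicate number as a term, took the listed genes called in HEK-293T from 2 to 0 and the HT-1080 transcripts changed in level from 4 to 0. It took those changed in usage in HT-1080 from 4 to 3, losing ENST00000426123.5. The calls on the gene's level and usage, and those of the other transcripts tested for usage that are named here, stayed on their side of the threshold. Same-numbered libraries deviated together with r of 0.03 to 0.13, not all over 0.1, so the numbers were not treated as pairs. In HEK-293T, 3 of 3 siNegative and 2 of 3 siHNRNPH1 libraries correlated best with their own number, and in HT-1080 2 of 3 and 2 of 3, a hint from the data and not from the design. Counting only IsoSeq models that start in exon 1 or 1b raised exon 1b to 19.1% and 25.5% in the HT-1080 pools, since fewer models are in the denominator. The other IsoSeq alternatives, among them models that reach the last exon, which was added after the data were seen, stayed within the intervals. Shares per base of transcript length were not run, because lengths were not used here. Except where a construction is named, the cause was not tested.

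Each group has 3 libraries or 1 pool, which limits precision. RSEM divides reads among 40 overlapping variants, so low shares such as that of ENST00000441154.5 in HEK-293T depend on that division, whose error was not used here. IsoSeq counts of models are not abundances.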

Other observations

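Over all 12 libraries, the genes whose log2 CPM (pseudocount 1) was most like that of EIF4G1, among 12172 genes averaging 50 or more counts in both lines' libraries, were SH3RF1 (Pearson r = 0.988), BCAT1 (0.985), SNX9 (0.981), EGLN1 (0.980) and STAG3L5P (0.980). Without HEK-293T siHNRNPH1 replicate 1 the values were 0.987, 0.953, 0.938, 0.951 and 0.937. The libraries fall into 2 lines and share their depth within a line, so these values describe a shared order of levels and carry no test.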
